A study of Drosophila melanogaster with 2 samples.

Results

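The cytoplasmic ribosomal protein genes of the fruit fly (Drosophila melanogaster) were examined in a chromatin immunoprecipitation sequencing (ChIP-seq) experiment on CG8216, a fly protein whose gene is also named spab. They were taken as the protein-coding genes of the dm6 genome build whose symbol begins with RpL, RpS or RpLP and a digit, together with sta, the gene of a small subunit protein. This gave 93 of the 13945 protein-coding genes on the 6 chromosome arms, 54 of the large subunit and 39 of the small subunit. The series has 1 group, with 2 biological replicates and no other condition. The animals were whole prepupae, the stage at the onset of metamorphosis, of both sexes pooled, from 1 transgenic strain that stably carried CG8216 with GFP fused to its C terminus. Their age is given in the labels as 24 days. Chromatin was sonicated to 200 to 800 bp and precipitated with an antibody against GFP, so the values describe the tagged protein in all tissues of the animal together. For each replicate and for both pooled there is a relaxed list of 30000 peaks, and the peaks that passed a threshold on the irreproducible discovery rate (IDR) are called the reproducible list here. A gene is called bound where the reproducible list has a summit, the point of highest signal in a peak, at most 500 bp from any annotated start site of the gene. Peak signal is given as the peak caller wrote it, in units that are not stated and not scaled for read number between lists.

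Cytoplasmic ribosomal proteins build the large and the small subunit of the ribosome and are made in matched amounts, so their genes are among the most strongly transcribed in growing cells. In flies, loss of 1 copy of many of them gives the Minute phenotype of slow development and short bristles. Their core promoters often carry the TCT element, a run of pyrimidines with the start site at its first C, in place of the usual initiator, and many also carry the DNA replication-related element bound by Dref or Motif 1 bound by the zinc finger protein M1BP.

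The strongest bound genes are introduced by the sequence at the start site that was nearest to their strongest summit, since most of the summits described lay on that site. Each sequence holds the 30 bases before the annotated start site and the 20 bases from it on, read 5′ to 3′ on the gene's strand from the RefSeq Release 6 (dm6) genome. The TCT element was scored as the word CTTTT or CTTTC with its C within 5 bp of the start site. Capitals mark the match nearest to that site. The first set holds those of the 12 strongest bound genes that had the word at this start.
RpS4 (chr3L:13041771-13041820, plus strand): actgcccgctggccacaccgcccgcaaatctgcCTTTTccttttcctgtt
RpLP0 (chr3L:22076062-22076111, plus strand): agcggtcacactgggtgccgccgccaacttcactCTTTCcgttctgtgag
RpL34b (chr3R:9401207-9401256, minus strand): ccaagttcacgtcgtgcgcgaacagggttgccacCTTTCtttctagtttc
RpL14 (chr3L:8600976-8601025, plus strand): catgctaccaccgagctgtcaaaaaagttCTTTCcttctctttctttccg
RpS25 (chr3R:11216268-11216317, minus strand): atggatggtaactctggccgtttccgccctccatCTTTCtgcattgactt
RpL8 (chr3L:2587426-2587475, plus strand): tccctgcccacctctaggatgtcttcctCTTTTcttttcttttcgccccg
The second set, also from the 12 strongest, had neither word at that position of the start site nearest to the summit. RpS27 and RpL24 still count as having a TCT word, because another of their annotated start sites has it.
RpS27 (chr3R:25247495-25247544, minus strand): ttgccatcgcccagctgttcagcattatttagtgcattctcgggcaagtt
RpL24 (chr2L:13395112-13395161, minus strand): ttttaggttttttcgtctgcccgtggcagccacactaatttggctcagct
RpS10b (chrX:19598010-19598059, plus strand): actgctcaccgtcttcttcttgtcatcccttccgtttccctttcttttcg
RpS28b (chrX:9554593-9554642, plus strand): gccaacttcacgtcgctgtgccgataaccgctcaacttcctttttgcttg

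In the reproducible list 30 of the 93 ribosomal protein genes were bound (32.3%, exact 95% interval 22.9 to 42.7%), against 1488 of 13852 other protein-coding genes (10.7%, 10.2 to 11.3%). The share over all protein-coding genes was 10.9%. Of the large subunit genes 16 of 54 were bound (29.6%, 18.0 to 43.6%), and of the small subunit genes 14 of 39 (35.9%, 21.2 to 52.8%), so the intervals of both subunits overlapped widely. Bound genes lay on every arm but the fourth chromosome, with 7 of 15 on X, 4 of 19 on 2L, 7 of 21 on 2R, 6 of 14 on 3L and 6 of 23 on 3R, and the 1 gene on 4 was not bound. No test was run on these shares, and the intervals cover counting error over genes only.

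The members' peaks were of middling strength. Their pooled signal ran from 159 to 481 with a median of 262 (quartiles 217 and 340.2), against a median of 359 (quartiles 220.0 and 694) at the other bound genes, whose strongest reached 4074. By rank in the reproducible list the members ran from 1444 to 5548. Large subunit peaks ran from 162 to 445 and small subunit peaks from 159 to 481, and both had a median of 262.

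RpS27, a small subunit protein with a zinc finger, had the strongest peak, at 481 in the pooled list, 270.0 in replicate 1 and 196 in replicate 2, with its summit 4 bp upstream of the start site. RpS4, another small subunit protein, had 257 in replicate 2 and no summit within 100 bp in replicate 1, with 455 pooled and a summit 5 bp downstream. RpLP0, the protein that anchors the acidic stalk of the large subunit, had 231 and 198 in replicates 1 and 2, 445 pooled, 4 bp upstream. These 3 summits lay within 5 bp of the start site, though that of RpS4 had a match in replicate 2 alone, 31 bp downstream of the start.

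RpL34b had 225 in replicate 1 and 193 in replicate 2 (415 pooled), with its summit 88 bp upstream. RpL24, a large subunit protein at the face between the subunits, had 162 and 242 (404 pooled), 12 bp downstream. RpL14 had 188 and 173 (359 pooled), 3 bp downstream. RpL34b was the 1 gene of the 12 strongest whose summit lay more than 50 bp from the start. RpL41, which encodes a very short basic peptide, had 203 and 136 (352 pooled), 25 bp upstream. RpS10b had 156 and 189 (347 pooled), 9 bp downstream. RpS28b had 183 in replicate 1 and no summit within 100 bp in replicate 2 (319 pooled), 49 bp upstream. Like RpS4, it was supported by 1 replicate. RpS25 had 176 and 138 (309.6 pooled), 46 bp upstream. RpL8, of the large subunit, had 134 and 155 (287 pooled), 22 bp downstream. RpS23, a protein of the decoding centre, had 94.5 and 169 (281 pooled), 16 bp downstream. Of the 12 strongest genes 10 thus had a matching summit in both replicates, and 11 had their summit within 50 bp of the start.

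The other 18 bound genes included, from the strongest down, RpS7, RpL19, RpL31, RpL30, RpS5a, RpS19a, RpL4, RpS18, RpS21, RpL27, RpS12, RpL39, RpL22, RpLP1, sta, RpL10Ab and RpS14b. They include RpS12, known in flies for its part in the competition between Minute and wild-type cells, and RpLP1, an acidic protein of the stalk. RpL31 had 142 in replicate 2 and no matching summit in replicate 1. RpL10Ab had a matching summit in neither replicate. The plot of signal by replicate shows that neither replicate was higher throughout.

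**Figure D1:**
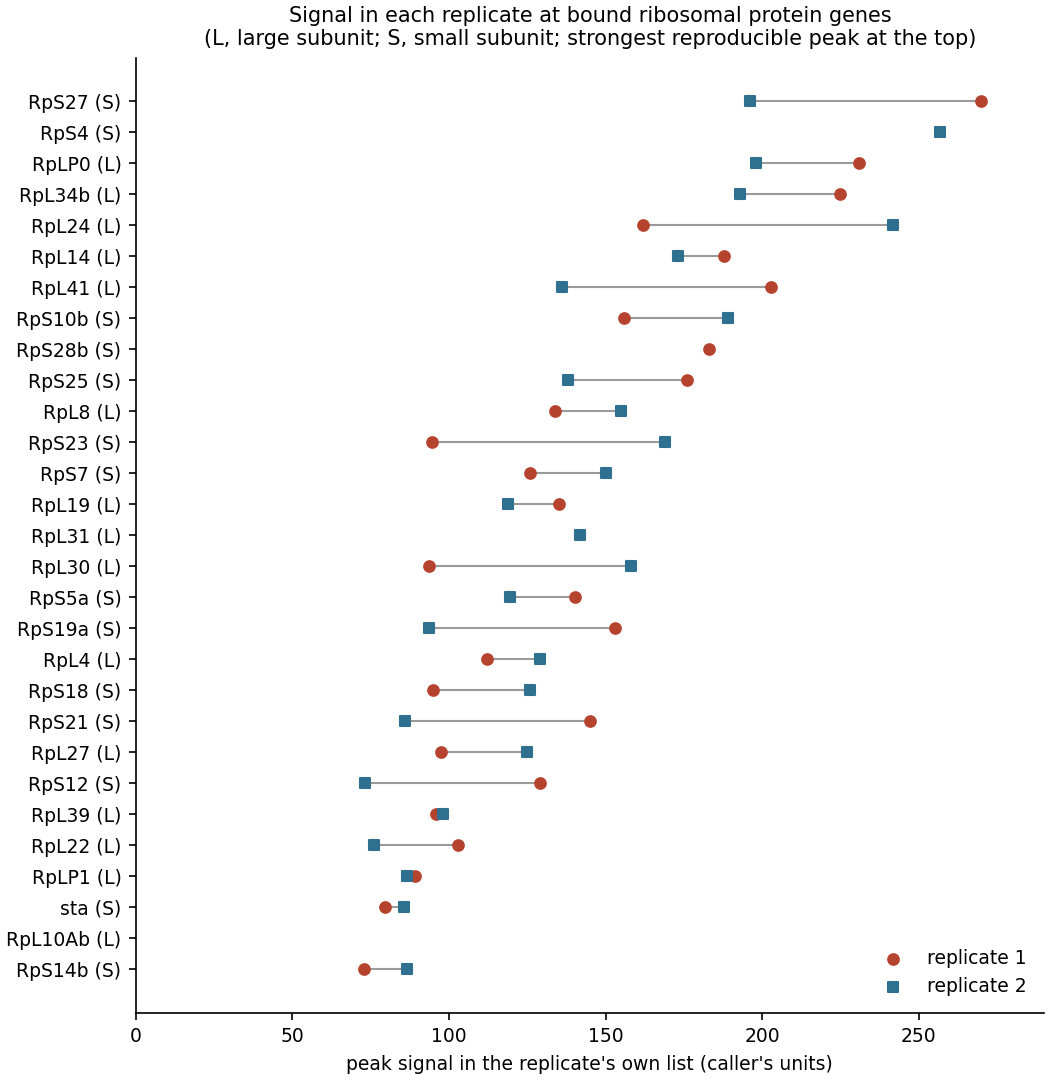
Peak signal (horizontal axis, caller's units) of the replicate summit within 100 bp of each bound gene's reproducible summit, circles for replicate 1 and squares for replicate 2, with 29 of the 30 genes shown, ordered by pooled signal. Replicate 1 lies higher in 13 of them and replicate 2 in 12, RpS4, RpS28b and RpL31 have 1 point each, and RpL10Ab has none.

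Of the 30 bound genes 26 had a summit within 100 bp in both replicates (86.7%), against 1378 of 1488 other bound genes (92.6%). Signal at the matched members ran from 72.8 to 270.0 (median 134) in replicate 1 and from 73.3 to 242 (median 128) in replicate 2. On the log2 scale the ratio of the replicates' signals, replicate 1 over 2, had a median of 0.08 (SD 0.47, range -0.83 to 0.81), against -0.12 (SD 0.41) at the other bound genes. This spread describes how far the replicates differed at the same gene. The error of a difference in signal between 2 members was not estimated, so the order of members with similar signals is uncertain.

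The summits of the bound ribosomal protein genes lay on or beside the start site. The median distance from the start site was 19.5 bp (quartiles 5 and 32.0) at the members, against 191 bp (quartiles 122 and 310.0) at the other bound genes. Within 50 bp of the start site lay 26 of the 30 members' summits (86.7%, exact 95% interval 69.3 to 96.2%), against 99 of the 1488 others (6.65%, 5.44 to 8.04%). Over all bound protein-coding genes this share was 8.23%, and members made up 20.8% of the 125 genes that had it. Among the members 20 summits lay upstream, 2 exactly at the start site (RpL4 and RpL39) and 8 downstream, from 220 bp upstream to 22 bp downstream. The median offset was -16.5 bp at the members, against -167 bp at the other genes, whose summits lay mostly upstream.

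**Figure D2:**
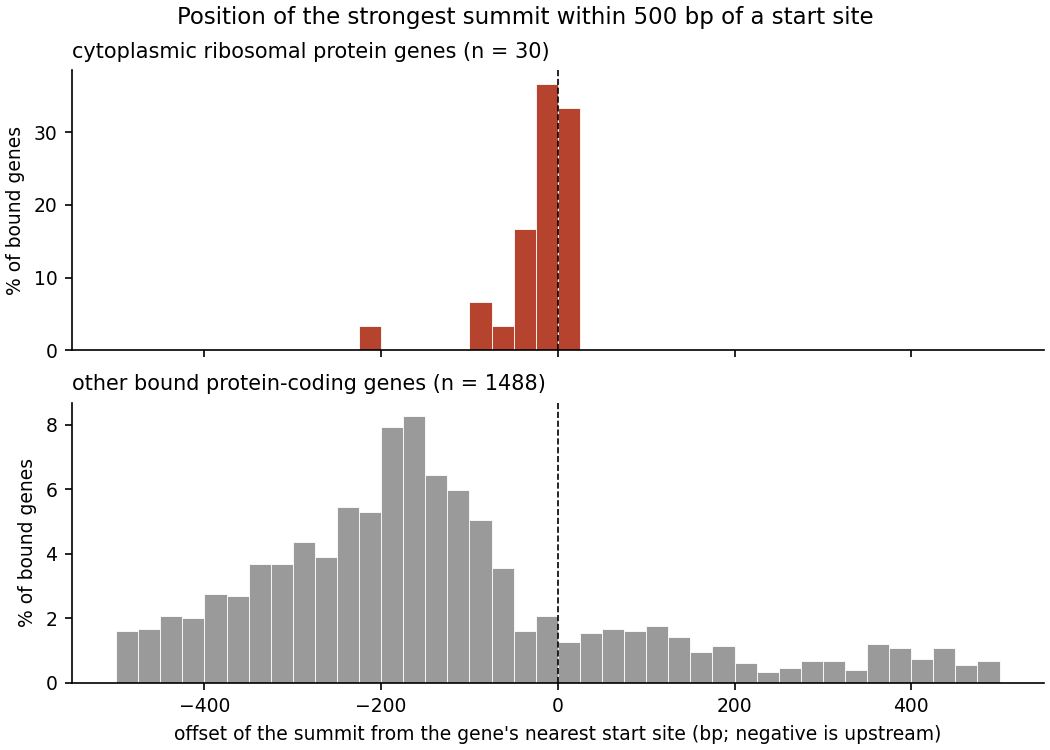
Share of bound genes (vertical axes, percent, on separate scales) by offset of the strongest summit from the gene's nearest start site (horizontal axis, bp, bins of 25 bp), for the 30 ribosomal protein genes above and the 1488 other protein-coding genes below. The members pile up within 50 bp of the start. The others have a broad upstream peak around a median of -167 bp and low shares at the start and downstream of it.

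The positions also differed among peaks of like rank. Among the 865 other genes whose peaks ranked between the highest and the lowest member, 7.98% had their summit within 50 bp and the median distance was 200.0 bp. The list was also split into 4 equal parts by rank. Within 50 bp lay 1 of 1 member in the strongest part, against 4.19% of the others, and 10 of 11 in the second, against 4.64%. In the third part it was 11 of 12, against 10.1%, and in the weakest part 4 of 6, against 10.7%. The own start site was the nearest of all start sites of any gene in 30 of 30 bound members. With only the nearest start site of each summit counted, 9.08% of all protein-coding genes were bound, against 10.9% without this limit.

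Each replicate taken alone gave similar positions. Taking as many of the strongest peaks of replicate 1 as the reproducible list holds, 31 members had a summit within 500 bp, where 11.2% of all protein-coding genes did, and the median distance was 24.0 bp at members and 195 bp at other genes. In the same number of peaks of replicate 2 it was 32 members, where 11.9% of all protein-coding genes did, with 19.0 bp at members and 189 bp at other genes. The replicates share the control library, and the reads behind them are also those behind the reproducible list.

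Narrower rules on distance kept all 30 members, which restates the offsets above. A window of 250 bp, which held 7.64% of all protein-coding genes, could drop none, since the farthest member summit was 220 bp away. All 30 also stayed when the peak interval had to cover a start site, as it did for 5.72% of all protein-coding genes. In the upper 50% of the reproducible peaks by signal 12 members were left (12.9% of the members), where 6.67% of all protein-coding genes were bound. The farthest bound member was RpL10Ab, 220 bp upstream, and 0 members had their nearest reproducible summit between 250 and 500 bp. Just outside the window was RpS19b, 900 bp from a summit with a signal of 1190, followed by RpS14a at 1135 bp.

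The 4 bound members with a summit more than 50 bp from the start lay upstream of it and were all of the large subunit, among them RpL34b (88 bp), RpL22 (58 bp) and RpL10Ab (220 bp). Of the bound large subunit genes 12 of 16 lay within 50 bp, and of the small subunit genes 14 of 14. The median distance was 22.0 bp in the large subunit and 17.0 bp in the small subunit.

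For 15 of the 30 bound members the same summit also lay within 500 bp of a start site of another protein-coding gene. In each case the member's start was nearer. The share of other bound genes with a summit shared in this way was not counted. The summit 4 bp from the start of RpS27 lay 140 bp from that of Nup37, a nuclear pore gene. The summit 3 bp from the start of RpL14 lay 130 bp from that of Nelf-E, which encodes a subunit of the negative elongation factor. None of the 99 other genes with a summit within 50 bp owed it to a member's summit (0 of 99).

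Peak widths followed signal. The caller gave most weak peaks a default width, 460 bp in the pooled and reproducible lists, and resized the others. Of the 30 bound members 8 had a peak narrower than that (26.7%), where 45.8% of all bound protein-coding genes did, and the other 22 were at 460 bp. The narrow peaks were those of RpS27 (249 bp), RpS28b (226 bp), RpS4 (209 bp), RpLP0 (204 bp), RpS10b (167 bp), RpL31 (164 bp), RpL14 (148 bp) and RpL24 (146 bp). Their median signal was 382, against 238 at the members of default width, and all 8 summits lay within 50 bp of the start. Among other genes with peaks in the members' range of ranks, 24.0% were narrower, so the members' share was near that of peaks of like rank. Each subunit had 4 narrow peaks.

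Below the threshold on reproducibility more members appeared. In the pooled relaxed list 46 members had a summit within 500 bp (49.5%), where 26.7% of all protein-coding genes did. The relaxed list of replicate 1 held 44 (47.3%), where 26.9% of all genes did, and that of replicate 2 held 57 (61.3%), where 30.2% of all genes did. At 35 members no list had a summit, among them RpL3, RpL6, RpS3 and RpS9. The share of all protein-coding genes with no summit in any list was not counted. The 16 members with a pooled summit that were not in the reproducible list had signals of 48.5 to 146 (median 101), below its lowest value of 149.5. They included RpL5, RpL7A, RpL10, RpL12, RpL15, RpL17, RpL23, RpL38, RpL40, RpS6, RpS10a, RpS13, RpS14a, RpS15 and RpS15Aa. Of these, RpL5 carries the 5S ribosomal RNA into the large subunit and RpS6 is the target of S6 kinase. Of their summits 9 of 16 lay within 50 bp of the start, with a median distance of 32.0 bp, and all 16 peaks had the default width. Over all protein-coding genes with a summit in the pooled relaxed list 14.5% lay within 50 bp, and the median distance of those that were not members was 186 bp.

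**Figure D3:**
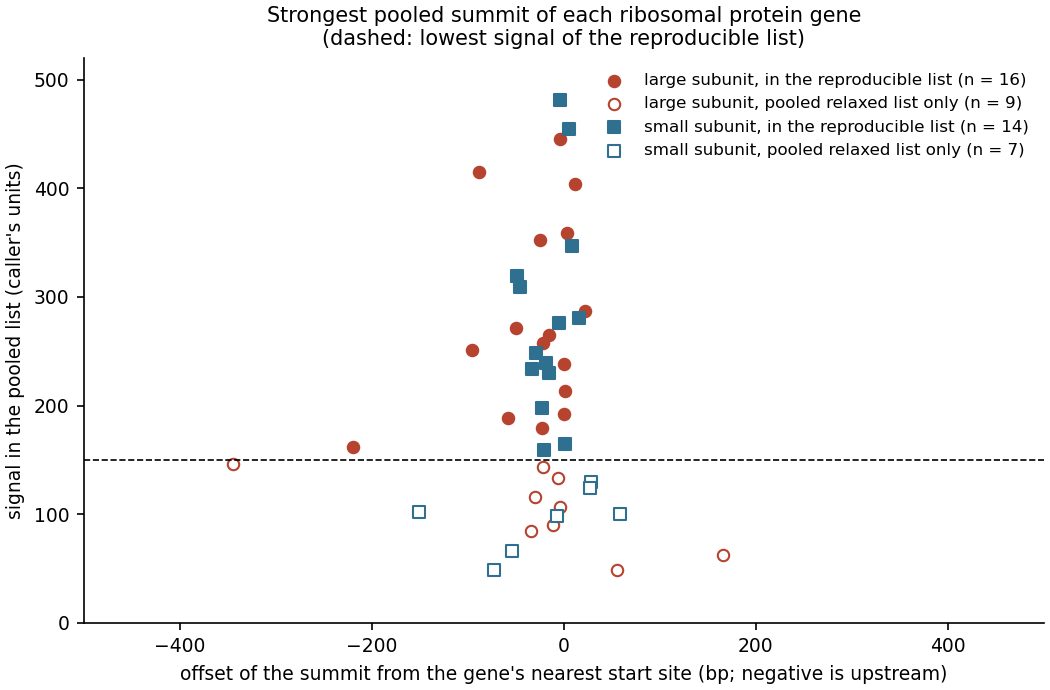
Pooled signal (vertical axis, caller's units) against offset of the strongest summit from the start site (horizontal axis, bp) for the 46 ribosomal protein genes with a summit in the pooled relaxed list, by subunit, filled where bound. The filled points lie between 159 and 481 and the open points between 48.5 and 146, with both kinds gathered near the start site.

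A further 6 members had a strong summit in a replicate and none in the pooled list. RpL32, of the large subunit, had 234 in replicate 1 and 229 in replicate 2, with summits 173 and 120 bp upstream, yet no pooled summit within 500 bp and so no reproducible one. RpL7 (198), RpL34a (144), RpS3A (127), RpL23A (112) and RpL36 (108) had theirs among the strongest peaks of replicate 2 alone, cut to the length of the reproducible list. Such genes were 6.45% of the members, against 1.56% of other protein-coding genes, and 1.59% of all protein-coding genes. In all, 3.92% of these strongest peaks of replicate 1 and 5.42% of those of replicate 2 had no pooled summit within 100 bp. How a peak of both replicates came to be missing from the pooled list is not given in the sources used here, so for RpL32 the call of not bound rests on that list alone. With a summit among these strongest peaks in both replicates as the rule, 24 members were called, where 9.34% of all protein-coding genes were, and 23 of the 24 were bound above, RpL32 being the other.

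Several ribosomal proteins have a second, often germline or testis, copy in flies. Families were formed here from the symbols alone, with each -like gene put with its namesake. Whether each -like gene is a copy of its namesake was not checked. The members held 13 families of this kind with 27 genes. In 10 of them exactly 1 gene was bound, in 0 of them more than 1, and in 3 none (RpL37, RpL7 and RpS15A). Genes of these families were bound in 10 of 27 cases (37.0%), against 20 of 66 members outside them (30.3%). The bound gene was RpL10Ab against RpL10Aa, RpL22 against RpL22-like, RpL24 against RpL24-like, RpL34b against RpL34a, RpLP0 against RpLP0-like, RpS5a against RpS5b, RpS10b against RpS10a, RpS14b against RpS14a, RpS19a against RpS19b, and RpS28b against RpS28a and RpS28-like.

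Most of the unbound genes of these families had no summit in any list, a share not counted over all protein-coding genes. None of the 5 genes named -like had a summit within 500 bp of a start in any list, nor did RpL10Aa, RpS5b, RpS19b, RpS28a, RpL37-1, RpL37-2 and RpS15Ab. RpL34a had 144 in replicate 2, 175 bp upstream, and none in replicate 1. RpS10a had 41.0 and 55.2 in replicates 1 and 2, at offsets of -151 and -194 bp, against 156 and 189 at RpS10b. RpS14a had 37.4 and 27.6, against 72.8 and 86.5 at RpS14b, and these neighbouring genes on X are near-identical copies. How reads that fit several places were counted is not given in the sources used here, so the split of signal between them is uncertain. In the RpL7 family RpL7 had 198 in replicate 2 alone and RpL7-like had no summit, and in the RpS15A family RpS15Aa had 71.6 and 74.8 and RpS15Ab had none.

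The start sites and summits of the members were then read for known promoter words. A TCT word at a start site, searched on the gene's strand as above and at every annotated start, was present in 20 of 30 bound members (66.7%, exact 95% interval 47.2 to 82.7%) and in 37 of 63 members that were not bound (58.7%, 45.6 to 71.0%). It was in 8.40% of other bound genes and in 5.13% of all protein-coding genes. The intervals of bound and unbound members overlapped, and both lay above the shares of the other genes. Among the 99 other genes with a summit within 50 bp of the start it was in 16 (16.2%, 9.53 to 24.9%). Of 23 bound members read only at the start nearest to the summit, 12 had the word. In 10 of them its C lay downstream of the annotated start. By this rule the share of other genes was not counted. A search at every start gives genes with more starts more chances of a word. Bound members had a median of 2.00 annotated starts, and all protein-coding genes 1.00.

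The DNA replication-related element, searched as TATCGATA on both strands, lay within 100 bp of the summit in 9 of 30 bound members (30%, 14.7 to 49.4%), against 33 of 1488 other bound genes (2.22%, 1.53 to 3.10%). The members included RpL41, RpS10b, RpS25, RpS7, RpL19, RpL27, RpS12 and RpL39. Summit windows cover different parts of the promoter in members and in other bound genes. The median summit distance from the start was 19.5 bp at members and 191 bp at the others. In the promoter, from 250 bp before to 50 bp after a start, the element was in 33.3% of bound members and 28.6% of members not bound. It was in 9.34% of other bound genes and 10.2% of all protein-coding genes. Around the start nearest the summit there were 11 matches in 10 bound members, all 11 upstream of the start with a median of -55.0 bp, and 9 to 147 bp from the summit. The stretch searched held 250 bp before the start and only 50 bp after it, so upstream matches were favoured. The Motif 1 core, searched as GGTCACAC on both strands, was within 100 bp of the summit in 4 bound members (13.3%, 3.76 to 30.7%), RpLP0, RpS23, RpL30 and RpLP1, against 19 others (1.28%, 0.770 to 1.99%). Over the whole promoter it was in 23.3% of bound members (9.93 to 42.3%), 14.3% of members not bound, 10.5% of other bound genes (8.97 to 12.2%) and 8.71% of all protein-coding genes, and the intervals of bound members and other bound genes overlapped. Neither word overlaps the other.

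The promoters of 3 bound members that had the first of these words in the stretch shown, and of RpLP0 for the second, show how the words stand to the start site. Each runs over 150 bases, 120 before the start site and 30 from it on, read 5′ to 3′ on the gene's strand from the RefSeq Release 6 (dm6) genome. Capitals mark TATCGATA in the first 3 and GGTCACAC in RpLP0, and the word CTTTC near the start site in RpS25 and RpLP0.
RpS10b (chrX:19597920-19598069, plus strand): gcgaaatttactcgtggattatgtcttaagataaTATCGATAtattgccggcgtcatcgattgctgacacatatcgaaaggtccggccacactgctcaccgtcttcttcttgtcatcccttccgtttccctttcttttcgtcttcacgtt
RpS25 (chr3R:11216258-11216407, minus strand): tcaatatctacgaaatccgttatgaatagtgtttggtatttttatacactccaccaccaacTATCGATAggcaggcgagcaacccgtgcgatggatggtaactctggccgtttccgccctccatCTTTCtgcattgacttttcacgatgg
RpS7 (chr3R:30208919-30209068, minus strand): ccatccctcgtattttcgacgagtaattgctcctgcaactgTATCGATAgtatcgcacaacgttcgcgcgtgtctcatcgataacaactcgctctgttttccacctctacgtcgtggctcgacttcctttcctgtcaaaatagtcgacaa
RpLP0 (chr3L:22075972-22076121, plus strand): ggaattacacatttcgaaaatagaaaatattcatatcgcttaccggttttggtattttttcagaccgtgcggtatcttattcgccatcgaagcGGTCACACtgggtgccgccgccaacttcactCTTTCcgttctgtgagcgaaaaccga
In RpS25 the centre of the element was 9 bp from the summit, in RpS7 70 bp and in RpS10b 91 bp, always upstream of it. In RpLP0 the centre of the Motif 1 core was 19 bp upstream of the summit.

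For other promoter words at the summit, the members' interval lay below that of the other bound genes for TCAGT alone. The intervals overlapped for the rest, though for GAGAG only at their edges. Both strands were searched within 100 bp of the summit, and TCAGT shares letters with the CAGTG words and with the other strand of CACTGAG, so these counts overlap. The initiator word TCAGT was in 3 of 30 members (10%, 2.11 to 26.5%), against 34.8% of other bound genes (32.4 to 37.3%). GAGAG, the word bound by the GAGA factor Trl, was in 3 of 30 (10%, 2.11 to 26.5%), against 27.2% (25 to 29.6%). Over the whole promoter TCAGT was in 26.7% of bound members, 49.2% of members not bound and 71.0% of other bound genes. There GAGAG was in 23.3% of bound members, 19.0% of members not bound and 58.9% of other bound genes. The TATA box word TATAAA was in 7 of 30 (23.3%, 9.93 to 42.3%), against 38.2% (35.7 to 40.7%). Over the whole promoter TATAAA was in 18 of 30 bound members (60%, 40.6 to 77.3%), against 57.0% of other bound genes (54.4 to 59.5%). Either of CAGTGTA and CAGTGCA, which earlier results on these peaks had pointed to, was in 1 of 30 (3.33%, 0.0844 to 17.2%), against 11.2% of other bound genes (9.60 to 12.9%) and 8.08% (3.55 to 15.3%) of the 99 with a summit within 50 bp, and the members' interval contains both shares. CACTGAG was in 0 of 30, which allows a share of up to 11.6% by the exact interval, against 3.29% (2.45 to 4.33%). In all protein-coding promoters these words were found in 58.5% (TCAGT), 36.3% (GAGAG), 51.2% (TATAAA), 3.79% (CAGTGTA), 5.91% (CAGTGCA) and 4.08% (CACTGAG). The summit windows of the members also had fewer A and T bases, with a median of 55.2% (quartiles 52.7 and 58.1), against 65.7% (59.2 and 70.1) at the other bound genes. These windows lay nearer to the start at members than at most other bound genes. The parts of summit position and of base composition in these shares were not tested.

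**Figure D4:**
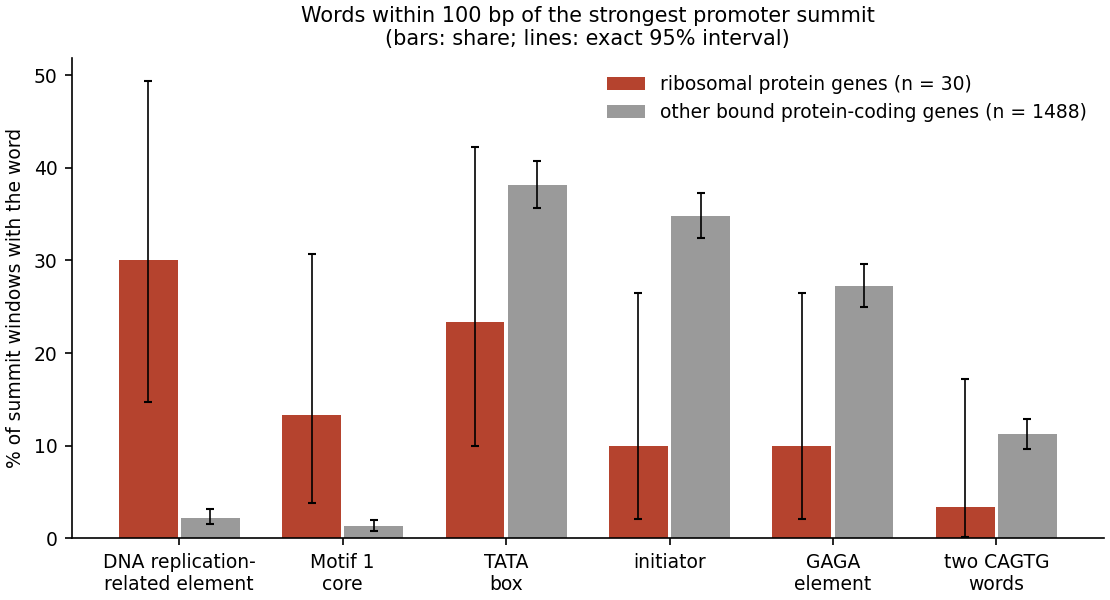
Share of summit windows (vertical axis, percent, with exact 95% intervals) that hold each promoter word within 100 bp of the strongest promoter summit, for the 30 bound ribosomal protein genes and, to their right, the 1488 other bound protein-coding genes. The DNA replication-related element and the Motif 1 core stand higher at the members (30% and 13.3%, against 2.22% and 1.28%). The initiator and the GAGA element stand lower, with intervals that overlap for the GAGA element. The windows lie nearer to the start site at the members than at most of the other genes.

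Genes that make or serve the ribosome did not share the pattern as a whole. Of 73 mitochondrial ribosomal protein genes 8 were bound (11.0%), among them mRpS23 (signal 2451, 386 bp upstream) and mRpS10 (2236, 121 bp upstream), and the rest were mRpL41, mRpL23, mRpL24, mRpL2, mRpS2 and mRpL20. None of the 8 had a summit within 50 bp of the start (0 of 8), with a median of 160.5 bp. Of 44 initiation factor genes 5 were bound (11.4%), namely eIF4EHP, eIF6, eIF3h, eIF4G2 and eIF5B, with a median of 149 bp and 0 within 50 bp. Of 22 ribosome biogenesis genes 2 were bound (9.09%), Ns2 and pes, both 184 bp upstream. Of 8 genes of RNA polymerase I and its initiation factor 1 was bound (12.5%), Polr1D, 314 bp downstream. The share over all protein-coding genes was 10.9%, and 8.23% of all bound protein-coding genes had their summit within 50 bp.

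A few genes of proteins that work on the cytoplasmic ribosome resembled the members. Rack1, a scaffold protein of the small subunit, had 106 and 122 in replicates 1 and 2, 221 pooled, and its summit 3 bp upstream. Nacalpha, of the complex that meets the nascent chain, had 97.8 and 163, 261 pooled, 45 bp downstream. These were the 2 bound of 6 ribosome-associated genes (33.3%, 4.33 to 77.7%). Of 9 elongation and release factor genes 4 were bound (44.4%, 13.7 to 78.8%), 2 of them within 50 bp. Both lists are short and their intervals wide. Of all protein-coding genes 10.9% were bound, and 8.23% of those bound had their summit within 50 bp. eEF1alpha1, which brings aminoacyl-tRNA, had 106 and 100 (201 pooled), 39 bp upstream, and eEF5 had 102 and 61.8 (172 pooled), 27 bp downstream. The others were eRF3 (78 bp upstream) and eEF2, the translocase (109 bp downstream).

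Other features of the genes were counted as well. A small nucleolar RNA gene was nested in 10 of 30 bound and 19 of 63 unbound members, and the median gene length was 1399 bp in bound and 1284 bp in unbound members. Bound members had a median of 2.00 annotated start sites and unbound ones 1.00, and a gene with more starts has more sequence within reach of a summit, a part in the calls that was not tested. A single start site was annotated for 13 of 30 bound and 35 of 63 unbound members.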

How the data were processed

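Per the deposited file list, peaks of each replicate were called on its own alignment against 1 control alignment, a pooled list was called on both replicates together, and the reproducible list was derived from these with an IDR threshold. The IDR threshold, the aligner and the caller are not stated in the labels or file headers. The signal of each peak is the value the authors' caller deposited, with its scale not stated. No file holds read numbers, so the depth is unknown. The control library and the dm3 lists were not used here.

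Start sites came from Ensembl release 115 (FlyBase 6.54, dm6), without transposable elements, and sequence from the RefSeq Release 6 genome, in which 99.5% of coding sequences opened with ATG at the annotated position. A gene takes its strongest summit within 500 bp of any start site. Summits of different lists were matched within 100 bp. Shares have exact 95% intervals by the Clopper-Pearson method, for counting error over genes. No test between groups was run, since the series has 1 group. The matching code was tested on simulated peaks. Bound members are named, except where an item is not reported here, with values for the 12 strongest, both genes of each family and the bound genes of 6 other lists. The members, lists and words were chosen with earlier results of these data known. Sequence is shown only for some of the genes. Python 3.11.15, pandas, NumPy and SciPy were used. Alternatives tried were other windows, lists, start sites and replicates.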

Additional observations from a re-analysis of the deposited data

How the results depend on the processing

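Of 85 values recomputed under the alternatives, 72 stayed and 13 moved. Staying meant within 1.5 times for a count, or within the spread between replicates for a median. Some could not move, since 0 of the 5 genes named -like were bound and no member summit lay beyond the 250 bp window. For distance and width the spread came from the same single-replicate values that were compared. For signal it was a ratio of 1.35. The tally is thus no test of stability. With the upper 50% of the reproducible peaks 12 members were bound, 6 of the large and 6 of the small subunit, 11 of them within 50 bp, with a median distance of 14.0 bp, a median width of 238 bp and a median signal of 355. In the pooled relaxed list 46 members had a summit, 25 of them of the large subunit. With 1 replicate left out, and so the strongest peaks of the other in as many places, the median distance was 19.0 to 24.0 bp and the median width 440.0 to 450.0 bp, the default widths of those lists. Of the 30 bound members 25 were among the 32 bound without replicate 1, and 27 among the 31 without replicate 2. With the most upstream start site alone the median distance was 28.0 bp, since fewer start sites were available. No paired analysis was possible because the series has 1 group. Depth is unknown, so no value here can say what a deeper library would add. The rule on peaks in both replicates without the pooled list and the limit to matched summits were chosen after seeing the data.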
